A study of Mus musculus with 9 samples.

Results

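The genes described here are 8 smooth muscle contractile genes, Acta2, Myh11, Cnn1, Des, Tagln, Cald1, Tpm2 and Mylk, of 38685 genes and loci measured in the mouse testis. They were chosen by name as genes of the contractile apparatus of peritubular myoid cells, with earlier results of these data known, in which genes of peritubular cells, Cnn1 included, were lower in Prm2-/- than in Prm2+/+ testes. Values of Prm2-/- against Prm2+/+ are therefore given as a description, with no p-value for the members, and nothing is read from counts of calls there. The intervals around the members' fold changes in that comparison take no account of this choice and are not read as tests. The other comparisons share its Prm2+/+ or its Prm2-/- libraries. The choice therefore bears on them too, and their p-values take no account of it. RNA came from testes of male C57BL/6 mice of 3 genotypes with 3 libraries each: Prm2+/+ (wildtype), Prm2+/- and Prm2-/-, labelled Prm2-deficient, the mutant allele stemming from gene editing with CRISPR/Cas9. No group received a treatment, the age is not given in the sources used here, and each library stands for 1 biological replicate. The tunica albuginea, the capsule of the testis, had been removed before total RNA was extracted, and QuantSeq, which reads transcripts near their 3′ end, was used to make the libraries. Prm2 encodes protamine 2, a nuclear protein of spermatids, so the targeted gene is one of germ cells, whereas the genes described here belong to somatic cells.

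Peritubular myoid cells are flat smooth muscle-like cells that wrap the seminiferous tubules. Their contraction moves immobile sperm and fluid along the tubule towards the rete testis, and together with Sertoli cells they lay down the basement membrane. In smooth muscle, a rise in calcium activates myosin light chain kinase, which phosphorylates the myosin light chain so that myosin can pull on actin. Calponin, caldesmon and tropomyosin sit on the actin filament and tune this process, and desmin filaments link the contractile units. The same genes are used by the smooth muscle of blood vessels, so in RNA of whole testis a transcript cannot be assigned to either cell. In bulk RNA of this kind, fewer cells of a type and less RNA per cell cannot be told apart either.

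The deposited values are normalized counts, that is, counts per gene divided by 1 size factor per library, and the counts before division could be recovered (3629929 to 4490411 per library in all). Prm2 RNA itself was not lower in Prm2-/- libraries (34660 to 42766 normalized counts, against 29716 to 39665 in Prm2+/+), so it does not check the labels. Replicate 3 of Prm2+/+ stood apart: its score on the first principal component of the 500 most variable genes was -65.6, against -1.33 to 19.5 in the other libraries, and Ldhc, a lactate dehydrogenase gene of germ cells, stood at 2505 there and at 27414 to 36393 elsewhere. Each member's value without this library is given where it turns the direction.

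All 8 genes were detected. Acta2, Myh11, Cnn1, Cald1, Tpm2 and Mylk had counts in every library, Des lacked counts in 2 libraries and Tagln in 1. The recovered counts ran from 170 to 239 for Acta2, from 42 to 71 for Myh11, from 14 to 36 for Cnn1, from 42 to 119 for Cald1, from 37 to 74 for Tpm2 and from 357 to 530 for Mylk, but from 0 to 35 for Des and from 0 to 9 for Tagln. Tagln was too low for the filter on low counts, so 7 of 8 members were tested. Member by member, the genotypes are compared by the log2 fold change (LFC) that limma fitted to log2 of the normalized count plus 1 over all 14893 genes kept by the filter, with its standard error (SE) and a p-value adjusted over all these genes.

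**Figure D1:**
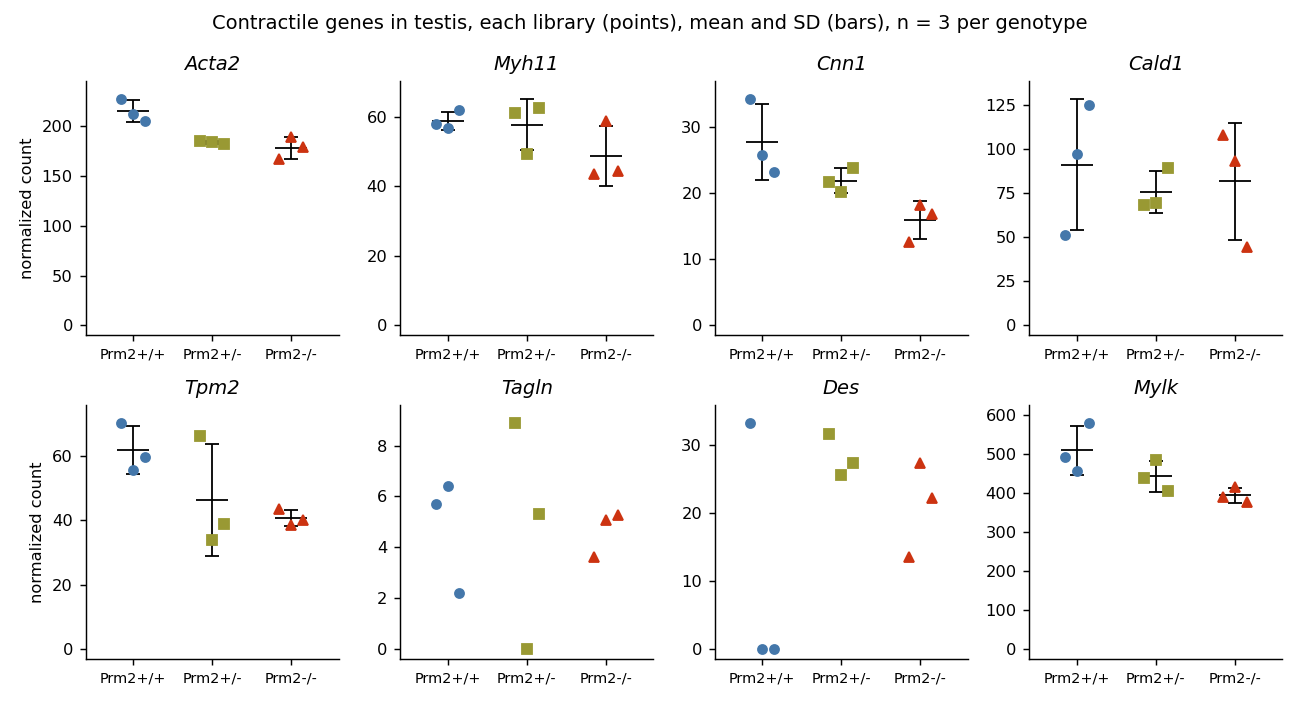
Normalized counts (y axis, from 0) of the 8 contractile genes in each library by genotype (x axis). Points are libraries and bars are mean and SD over 3 libraries, left out for Tagln and Des, which have libraries at 0; Acta2 in all 3 Prm2+/+ libraries lies above the other 6 libraries, and Des is at 0 in 2 Prm2+/+ libraries.

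The thin filament is described first. Acta2 (ENSMUSG00000035783, chromosome 19, 34241090 to 34255590, minus strand, GRCm38) encodes smooth muscle alpha actin, the usual marker of peritubular myoid cells. It had 227.1, 212.2 and 205.5 normalized counts in Prm2+/+, 184.9, 184.5 and 182.0 in Prm2+/-, and 166.6, 188.7 and 179.5 in Prm2-/-. All 3 Prm2+/+ libraries lay above the 6 others, while the Prm2-/- libraries lay on both sides of the Prm2+/- libraries. The means were 214.9 ± 11.1, 183.8 ± 1.55 and 178.3 ± 11.1 (SD, n = 3 each). The LFC of Prm2+/- against Prm2+/+ was -0.22 (SE 0.09), with a limma p of 0.0449 before adjustment and an adjusted p of 0.842, and that of Prm2-/- against Prm2+/- was -0.05 (SE 0.09, adjusted p = 0.9997, 95% interval -0.26 to 0.17). As a description, the LFC of Prm2-/- against Prm2+/+ was -0.27 (95% interval -0.49 to -0.05, which takes no account of how the genes were chosen).

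Transcription of Acta2 is known to depend on CArG boxes, runs of A or T bases between a pair of C and a pair of G, to which serum response factor binds. The first 250 bases upstream of the RefSeq start of each member were searched on both strands, with at most 1 other base in the A and T run. The 2 runs found in Acta2 are printed because they are the only ones in the members' windows, in capitals with 10 flanking bases on each side, from RefSeq on GRCm38.p6, minus strand:
Acta2 run 84 bases before the start, chr19:34255438-34255467: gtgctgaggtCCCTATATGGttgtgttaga
Acta2 run 34 bases before the start, chr19:34255388-34255417: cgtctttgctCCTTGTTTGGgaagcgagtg
Each run holds 1 base other than A or T between its ends. GENCODE M21 starts its longer Acta2 transcript further upstream, at 34255590, so that both runs lie within the span of that transcript. Whether they lie in an exon of it was not looked up. RefSeq windows were at hand for 6 of 8 members, 7 windows in all, and 1 window, that of Acta2, held such a run. Of all 32851 RefSeq windows of this length, 8.59% held one, and 1.47% held a box with A and T alone, which 0 of the members' windows did. The sequences of Myh11 and Tagln are not analysed here. A match of letters is a description and not evidence of binding in these testes.

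Tpm2 (ENSMUSG00000028464, chromosome 4, 43514711 to 43523765, minus strand) encodes beta tropomyosin, which winds along the actin filament. It stood at 70.3, 55.7 and 59.7 in Prm2+/+, at 66.2, 33.8 and 38.9 in Prm2+/-, and at 43.5, 38.6 and 40.1 in Prm2-/-. Replicate 1 of Prm2+/- lay within the Prm2+/+ range and the other Prm2+/- libraries within or below that of Prm2-/-. The LFC was -0.47 (SE 0.25, adjusted p = 0.842) for Prm2+/- against Prm2+/+ and -0.12 (SE 0.25, adjusted p = 0.9997) for Prm2-/- against Prm2+/-. The first of these was -0.75 without replicate 1 of Prm2+/- and -0.27 without replicate 2. All Prm2-/- libraries lay below all Prm2+/+ libraries, with an LFC of -0.59 (95% interval -1.15 to -0.02) as a description.

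Cnn1 (ENSMUSG00000001349, chromosome 9, 22099216 to 22109630, plus strand) encodes calponin 1, an actin-binding inhibitor of the myosin ATPase of differentiated smooth muscle. Its values were 34.2, 25.7 and 23.2 in Prm2+/+, 21.8, 20.1 and 23.9 in Prm2+/-, and 12.7, 18.3 and 16.9 in Prm2-/-. The Prm2-/- libraries were the lowest 3 of the 9, and 1 Prm2+/- library reached into the Prm2+/+ range. The means were 27.7 ± 5.77, 21.9 ± 1.89 and 15.9 ± 2.91. These are few counts, and the 95% counting interval (exact Poisson) of the highest library, 24.0 to 47.4, and of the lowest, 6.93 to 21.3, show how wide a single value is; such intervals cover counting error only. The LFC of Prm2-/- against Prm2+/- was -0.45 (SE 0.22, adjusted p = 0.958) and that of Prm2+/- against Prm2+/+ was -0.31 (SE 0.22, adjusted p = 0.842). The latter was -0.15 without replicate 1 of Prm2+/+, which held the highest value. As a description, the LFC of Prm2-/- against Prm2+/+ was -0.76 (95% interval -1.27 to -0.24), and it was -0.60 without that library.

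Cald1 (ENSMUSG00000029761, chromosome 6, 34598500 to 34775473, plus strand) encodes caldesmon, a further actin-bound inhibitor, which is also made by many cells other than muscle. It varied more between replicates than between genotypes: 51.3, 97.5 and 124.9 in Prm2+/+, 68.2, 69.4 and 89.2 in Prm2+/-, and 107.8, 93.4 and 44.4 in Prm2-/-. Every genotype overlapped with the others. The LFC was -0.19 (SE 0.41, adjusted p = 0.928) for Prm2+/- against Prm2+/+, 0.03 (SE 0.41, adjusted p = 0.9997) for Prm2-/- against Prm2+/- and -0.16 (SE 0.41) for Prm2-/- against Prm2+/+. Without replicate 3 of Prm2+/+, the first and the last of these turned to 0.08 and 0.11.

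Tagln (ENSMUSG00000032085, chromosome 9, 45929619 to 45936058, minus strand) encodes transgelin, also known as SM22 alpha, an actin cross-linking protein and an early marker of smooth muscle. It had 5.70, 6.43 and 2.21 normalized counts in Prm2+/+, 8.90, 0 and 5.30 in Prm2+/-, and 3.62, 5.07 and 5.28 in Prm2-/-. With 0 to 9 counts, a library at 0 allows an expectation of up to 3 counts (a one-sided limit, whereas the counting intervals of Cnn1 are two-sided), and a difference between genotypes was not detectable at this depth. The gene overlaps Pcsk7 and Gm48529, both on the other strand, so its few counts are uncertain.

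The motor side came next. Myh11 (ENSMUSG00000018830, chromosome 16, 14194535 to 14291372, minus strand) encodes the smooth muscle myosin heavy chain, a marker of differentiated smooth muscle. Its values were 58.0, 56.8 and 61.9 in Prm2+/+, 61.3, 49.3 and 62.7 in Prm2+/-, and 43.5, 58.9 and 44.4 in Prm2-/-. The Prm2-/- libraries with replicate numbers 1 and 3 were the lowest of all 9, and replicate 2 lay among the other genotypes. The LFC was -0.03 (SE 0.17, adjusted p = 0.974) for Prm2+/- against Prm2+/+, -0.24 (SE 0.17, adjusted p = 0.977) for Prm2-/- against Prm2+/- and -0.28 (95% interval -0.66 to 0.11) for Prm2-/- against Prm2+/+. The first of these was 0.0021 without replicate 3 of Prm2+/+.

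Mylk (ENSMUSG00000022836, chromosome 16, 34745210 to 35002420, plus strand) encodes myosin light chain kinase, the enzyme that switches smooth muscle myosin on. It stood at 491.3, 456.5 and 580.1 in Prm2+/+, at 438.0, 484.1 and 405.6 in Prm2+/-, and at 389.4, 416.0 and 377.0 in Prm2-/-. All Prm2-/- libraries lay below all Prm2+/+ libraries, while the Prm2+/- libraries overlapped with both. The LFC was -0.20 (SE 0.12, adjusted p = 0.842) for Prm2+/- against Prm2+/+, -0.16 (SE 0.12, adjusted p = 0.977) for Prm2-/- against Prm2+/- and, as a description, -0.36 (95% interval -0.63 to -0.09) for Prm2-/- against Prm2+/+. Without replicate 3 of Prm2+/+, which stood apart and held the highest value, the first of these was -0.10. Mylk, like Cald1, overlaps 3 antisense or long noncoding genes.

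Des (ENSMUSG00000026208, chromosome 1, 75360329 to 75368579, plus strand), which encodes the intermediate filament protein desmin, had another pattern than the rest. It had 33.3 normalized counts in replicate 1 of Prm2+/+ and 0 in replicates 2 and 3, against 31.6, 25.6 and 27.4 in Prm2+/- and 13.6, 27.4 and 22.2 in Prm2-/-. The 7 libraries with counts lay within 13.6 to 33.3, and the gap down to the libraries at 0 was 3.87 on the log2 scale of the value plus 1. A gap of more than 3 between neighbouring libraries was not rare, since 1229 of the 14893 tested genes (8.25%) had one. The LFC of Prm2+/- against Prm2+/+ was 3.16 (SE 1.24), with a limma p of 0.0344 before adjustment and an adjusted p of 0.842, and that of Prm2-/- against Prm2+/- was -0.45 (SE 1.24, adjusted p = 0.9997). The first depends on the libraries at 0 and on how they are modelled. It was 1.75 with a pseudocount of 5, 3.81 with one of 0.5, 1.29 with edgeR and 1.34 with DESeq2. Without replicate 1 of Prm2+/+, both wildtype libraries left are at 0, the LFC became 4.86 and passed the test (limma adjusted p = 0.00512). Of the neighbouring genes, Speg stood at 0 to 5.52 in all 9 libraries, too low to show such a drop. Dnpep shared the pattern only in part. It was low in replicate 2 of Prm2+/+ (68.6) and in replicate 1 of Prm2-/- (102.3), where Des was lowest among libraries with counts. In replicate 3 of Prm2+/+, where Des was at 0, Dnpep was at 506.1.

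**Figure D2:**
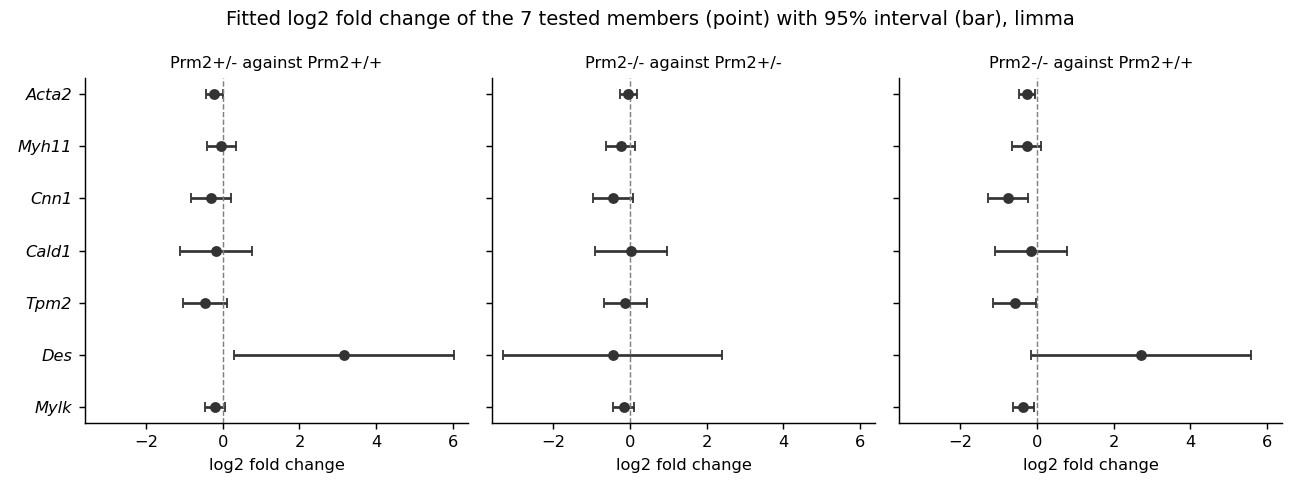
Log2 fold change (x axis, points) with 95% interval (bars) of the 7 tested members in the 3 comparisons of genotypes, from limma on the log2 scale. In the first 2 comparisons the points of 6 of 7 genes lie below 0, with intervals that include 0 for all but Acta2 and Des in Prm2+/- against Prm2+/+; the comparison of Prm2-/- with Prm2+/+ is a description.

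As a group, 0 of 7 tested members passed the test (adjusted p under 0.05 and LFC beyond 0.5) in Prm2+/- against Prm2+/+, where limma called 0.0806% of all tested genes. In Prm2-/- against Prm2+/- it was 0 of 7, with 0.175% of all genes called. Prm2-/- against Prm2+/+ also gave 0 of 7, beside 0.181% of all genes, but this is the comparison whose results were known. By edgeR and DESeq2 the count was 0 of 7 in all 3 comparisons as well. Of all 14893 genes, edgeR called 7 higher and 3 lower, 19 and 4, and 20 and 4 in the order given above. DESeq2 called 29 higher and 30 lower, 88 and 22, and 101 and 30. At an unadjusted p under 0.05 limma gave 2 members in Prm2+/- against Prm2+/+, Acta2 lower and Des higher, where 4.24% of all tested genes had such a p. It gave 0 in Prm2-/- against Prm2+/-, where 5.44% of all genes did.

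Every library of the first genotype lay below every library of the second for 1 of 7 tested members in Prm2+/- against Prm2+/+ (Acta2), where 4.56% of all tested genes did so. It was again 1 of 7 in Prm2-/- against Prm2+/- (Cnn1), where 7.25% of all genes did so. In Prm2-/- against Prm2+/+ it was 4 of 7 (Acta2, Cnn1, Tpm2 and Mylk) beside 7.1% of all genes, a count from which nothing is read, since results of that comparison were known when the genes were chosen. The median LFC of the 7 members was -0.20, -0.16 and -0.28 in these 3 comparisons, and that of all tested genes was 0.01, -0.01 and 0.02. The comparisons share libraries and are not independent of each other, so the choice of the genes bears on the counts and medians of all of them.

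The genotype means fell from Prm2+/+ over Prm2+/- to Prm2-/- for 6 of 8 members (Acta2, Myh11, Cnn1, Tagln, Tpm2 and Mylk), of which Tagln was not tested. This was so for 5 of the 7 tested members and for 18.3% of all tested genes, and the upper and lower end of this order are the genotypes whose difference was known. The neighbouring genotypes in this order did not differ beyond the test's threshold for any tested member. Some steps lay well within the spread of replicates. The means of Tagln were 4.78 ± 2.26, 4.73 ± 4.48 and 4.66 ± 0.90 (SD), and those of Myh11 were 58.9 ± 2.66, 57.8 ± 7.36 and 48.9 ± 8.64. The highest of the 9 values belonged to a Prm2+/+ library for 6 members and to a Prm2+/- library for the other 2, and the lowest to a Prm2-/- library for 5, to Prm2+/- for 2 and to Prm2+/+ for 1. The share of all genes with such extremes was not computed. Nothing is read from these counts, since results of Prm2-/- against Prm2+/+ were known at the choice.

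The normalized counts of the 8 members summed to 980 ± 73.7 in Prm2+/+ (911 to 1057), 861 ± 23.5 in Prm2+/- (835 to 881) and 786 ± 58.5 in Prm2-/- (730 to 846). The range of Prm2+/+ lay above both others, which overlapped with each other. Results of Prm2-/- against Prm2+/+ were known when the members were chosen, and both comparisons with Prm2+/+ share its libraries. Nothing is therefore read from the order of these sums. Since a sum is weighted towards genes with many counts, it was also taken without Mylk, which gave 454 to 480 in Prm2+/+, 383 to 443 in Prm2+/- and 353 to 430 in Prm2-/-.

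How well these genes can be compared depends on counting. In 10 of 24 pairs of a gene and a genotype the SD between replicates was smaller than the SD that counting alone would give, and in 6 it was more than 2 times as large. Acta2 replicates spread by 0.119 to 0.834 times the counting SD, no more than counting alone gives. Des in Prm2+/+ spread by 5.92 times, Cald1 by 3.77 times in Prm2+/+ and 3.72 times in Prm2-/-, Mylk in Prm2+/+ by 2.76 times, Tpm2 in Prm2+/- by 2.64 times and Tagln in Prm2+/- by 2.11 times. In these 6 pairs the replicates spread by more than the counting SD, but the excess was not tested. Each SD rests on 3 libraries, and the counting SD treats the recovered counts as reads, which they may not equal.

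**Figure D3:**
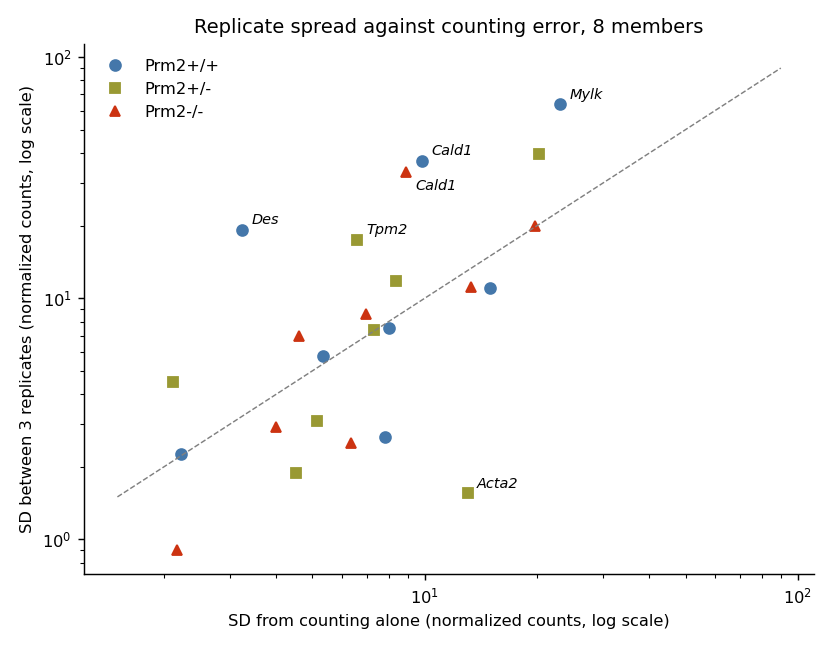
SD between the 3 replicates (y axis, log scale) against the SD expected from counting alone (x axis, log scale), both in normalized counts, for each of the 8 genes in each genotype (points). The dashed line marks equality; Acta2 in Prm2+/- lies far below it at 0.119 times, and Des in Prm2+/+ lies farthest above it at 5.92 times.

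The rest of the contractile pathway was followed in 60 further genes in 4 lists, of which 42 were tested. By limma and edgeR 0 of the 42 passed the test in any comparison. DESeq2 called 1, Vim, in Prm2-/- against Prm2+/-, where it called 88 of all 14893 genes higher and 22 lower. The median LFC of the 42 was -0.02 in Prm2+/- against Prm2+/+, -0.00 in Prm2-/- against Prm2+/- and 0.03 in Prm2-/- against Prm2+/+, close to that of all genes. Of the 42 genes 2, 2 and 3 lay lower without overlap, where 4.56%, 7.25% and 7.1% of all tested genes did so. Higher without overlap lay 5, 2 and 5 of them, where 4.88%, 7.47% and 6.92% of all tested genes did so. At an unadjusted p under 0.05, limma gave 3 of the 42 in Prm2+/- against Prm2+/+ (2 higher and 1 lower), 2 in Prm2-/- against Prm2+/- (both higher) and 4 in Prm2-/- against Prm2+/+ (all higher). Of all tested genes 4.24%, 5.44% and 7.33% had such a limma p in these comparisons.

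Of the genes of filaments and adhesion, 16 of 20 were tested, with median LFCs of -0.12, 0.13 and -0.03. Vim, which encodes the intermediate filament protein vimentin, stood at 401.0, 69.7 and 72.9 in Prm2+/+, at 56.6 to 78.1 in Prm2+/- and at 368.4 to 427.7 in Prm2-/-. Its replicate 1 of Prm2+/+ thus lay with the Prm2-/- libraries, and the LFC of Prm2-/- against Prm2+/- was 2.55 (SE 0.60, limma adjusted p = 0.552). Itga1, an integrin subunit that binds collagen, had 75.1 to 88.4 in Prm2+/+, 45.9 to 73.2 in Prm2+/- and 56.0 to 70.6 in Prm2-/-, with an LFC of -0.47 (SE 0.19, adjusted p = 0.842) for Prm2+/- against Prm2+/+. Filip1l had 19.9 to 26.8, 30.04 to 34.7 and 29.6 to 34.5, with an LFC of 0.41 (SE 0.17, adjusted p = 0.842) for the same comparison.

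Of the receptors and relaxing signals, 7 of 18 were tested, with medians of 0.09, -0.04 and 0.06. Prkg1, the kinase that mediates relaxation by cyclic GMP, stood at 350.6, 34.3 and 5.52 in Prm2+/+, at 401.9 to 443.9 in Prm2+/- and at 397.0 to 397.8 in Prm2-/-. As for Des, replicates 2 and 3 of Prm2+/+ were the low libraries, and the LFC of Prm2+/- against Prm2+/+ was 3.30 (SE 1.19, limma adjusted p = 0.842). Of the transcription factors and growth factor signals of smooth muscle, 9 of 12 were tested, with medians of 0.09, -0.14 and -0.00 and no gene (0) at an unadjusted p under 0.05.

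Markers of other cells were summed in each library, to set them beside the sum of the contractile genes. The genes that peritubular cells secrete or place in the matrix summed to 270 to 341 in Prm2+/+, 293 to 350 in Prm2+/- and 301 to 339 in Prm2-/-, and 9 of 14 were tested with median LFCs of 0.18, -0.05 and 0.13 and 0 calls. The ranges in the 3 genotypes were 106 to 132, 98.9 to 122 and 124 to 129 for pericytes and vascular smooth muscle, of which 2 of 10 genes were tested and Cox4i2 was at 0, and 201.5 to 252, 217 to 236 and 209 to 260 for endothelium. Interstitial fibroblast markers summed to 412 to 503, 435 to 490 and 402 to 485. Of 12 tested, 1, Mfap5, was called lower in Prm2-/- than in Prm2+/- by limma, where limma called 0.175% of all tested genes. It was also called in Prm2-/- against Prm2+/+, beside 0.181% of all genes by limma, and edgeR and DESeq2 called it in the same comparisons. Mfap5 stood at 71.8 to 84.6 in Prm2+/+, at 62.3 to 87.5 in Prm2+/- and at 9.50 to 14.2 in Prm2-/-.

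The sums overlapped between genotypes for Leydig cells (1943 to 2155, 2102 to 2650 and 2077 to 2359) and for macrophages (194 to 271, 207 to 261 and 238 to 295). Sertoli cell genes also overlapped (872 to 1065, 899 to 984 and 971 to 1032). Germ cell sums were 220 to 329, 215 to 328 and 246 to 287 for spermatogonia, 11159 to 41406, 38576 to 45250 and 35319 to 37250 for spermatocytes, whose lowest value is that of the Prm2+/+ library that stood apart, and 201469 to 216413, 197280 to 210295 and 194256 to 203388 for spermatids. Ldhc had the most counts of the spermatocyte genes, 27584 on average over all libraries, and stood at 2505 in the library that stood apart. The low spermatocyte sum there is thus largely that of Ldhc and is not read as a level of spermatocytes.

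Muscle and duct tissue that could come with a dissection were at low levels. Skeletal muscle genes summed to 3.31 to 33.2 in Prm2+/+, 11.9 to 40.6 in Prm2+/- and 20.3 to 25.4 in Prm2-/-, and 5 of 10, Myh4, Myh1, Tnnt3, Tnni2 and Atp2a1, were at 0 in all 9 libraries. Epididymis genes summed to 59.7 to 64.6, 44.5 to 55.7 and 38.9 to 57.0, with Lcn5, Lcn8, Lcn9, Lcn10 and Spint4 (5 of 10) at 0 in all libraries. The sum of the remaining epididymis genes, of which Rnase10 had most counts, was highest in Prm2+/+ as was that of the contractile genes, and its part in the result was not tested.

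**Figure D4:**
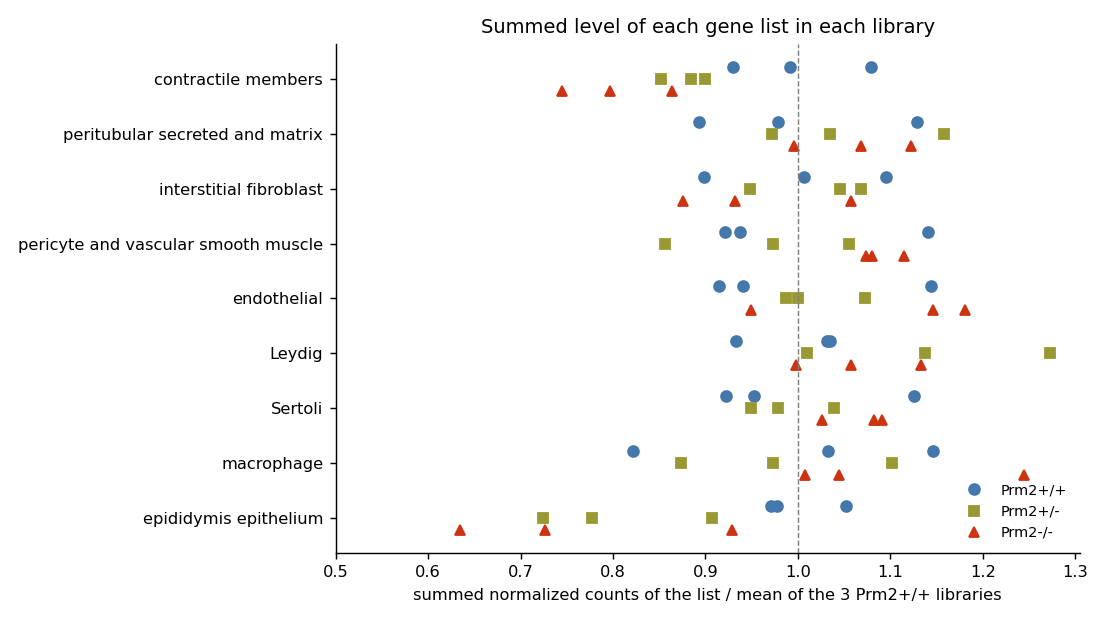
Summed normalized counts of the contractile genes and of marker lists of other cells in each library (points), divided by the mean of the 3 Prm2+/+ libraries (x axis, from 0.5; dashed line at 1). The contractile genes and the epididymis genes have all 3 Prm2+/+ libraries above the other 6, while the ranges of the genotypes overlap for the secreted peritubular genes.

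Within the group, the genes did not move together in every library. Across the 9 libraries, which share the differences between genotypes, Pearson's r between each gene and the mean of the members' standardized values, itself included, was 0.86 for Myh11, 0.85 for Cnn1, 0.82 for Acta2, 0.80 for Tpm2 and 0.62 for Mylk, but 0.40 for Tagln, 0.12 for Cald1 and -0.27 for Des. This mean was 0.74, 0.28 and 0.46 in Prm2+/+, 0.36, -0.53 and 0.08 in Prm2+/-, and -0.66, -0.02 and -0.72 in Prm2-/-, in SDs over the libraries. Of all other tested genes, the 10 with the highest r to this mean were Ripk2 (0.98), Prdx2 (0.95), Lin28a (0.94), Dstn (0.94), Arhgef18 (0.92), Btg3 (0.91), Slc9c1 (0.91), Ccdc73 (0.89), Snrpb (0.89) and 4933407I08Rik (0.89). Dstn encodes destrin, which disassembles actin filaments, and had 215 to 245 normalized counts in Prm2+/+, 193 to 230 in Prm2+/- and 177 to 197 in Prm2-/-. With 9 libraries and 14893 genes, high values of r are a description of these libraries only.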

How the data were processed

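QuantSeq 3′ libraries of testis RNA from 3 Prm2+/+, 3 Prm2+/- and 3 Prm2-/- males were analysed. According to the methods and the processing notes, reads were trimmed with Trim Galore 0.4.5, mapped to GRCm38 with HISAT2 2.1, quantified with StringTie 1.3.3, summed to genes and analysed with DESeq2. What the authors deposited is a signal: counts per gene over 1 size factor for each library, called normalized counts here. All (100%) were whole multiples of 1 step per library within 0.01, and the count of each gene was recovered from that step, which lies so near 1 in replicate 1 of Prm2+/- that this is a weaker sign there. StringTie's counts are derived from coverage, and may not equal numbers of reads. Of 38685 rows, 38520 matched GENCODE M21, which gave positions. A total of 0 columns lacked a sample.

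Genes were kept by filterByExpr (14893). Limma 3.58.1 (lmFit, eBayes with trend) in R 4.3.3 was fitted to log2 of the value plus 1 with genotype as the only term, with Benjamini-Hochberg adjustment, and calls needed an adjusted p under 0.05 and an LFC beyond 0.5. EdgeR 4.0.16 and DESeq2 1.42.0 on the recovered counts were alternatives, besides TMM factors, pseudocounts of 0.5 and 5, no filter, only the libraries compared, a replicate block, and leaving out each library in turn. The fit was first tested on simulated data with known changes. Replicates are separate animals as far as the methods state it. The members and lists were chosen with earlier results of these data known. The genes named are the 8 members, list genes with an unadjusted p under 0.05 (1 of these, and the values of 1 list on its own, are not reported here), and the 10 genes most like the members' mean. Others, such as Ldhc, Mfap5, Rnase10, Speg, Dnpep and Pcsk7, were named after their values were seen. Python 3.11.15 was used for lists, sequences and figures.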

Additional observations from a re-analysis of the deposited data

How the results depend on the processing

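The count of members called was 0 of 7 in each comparison of genotypes, and 0 under every alternative of scaling, pseudocount, filter, tool and samples. With a replicate block it was also 0. The replicate numbers do not pair the libraries: the deviations of libraries with the same number correlated at -0.0365 to 0.0423 over 9 pairs. Leaving out 1 library each gave 0 to 1 called, the 1 being Des in Prm2+/- against Prm2+/+ without replicate 1 of Prm2+/+. Of all 15267 genes in that fit, 27 were called higher and 7 lower. In Prm2-/- against Prm2+/+, a description, the 1 called was Des without the same library, beside 48 of all genes called higher and 10 lower. The LFC of Des in the latter was 2.71, and 1.37 with a pseudocount of 5, 0.87 with edgeR, 0.92 with DESeq2 and 4.41 without that library. Signs of small LFCs turned when 1 library was left out, in ranges of -0.10 to 0.075 for Myh11 and -0.55 to 0.083 for Cald1 in Prm2+/- against Prm2+/+. The ranges were -0.087 to 0.0021 for Acta2, -0.22 to 0.41 for Cald1 and -0.31 to 0.16 for Tpm2 in Prm2-/- against Prm2+/-, and -0.52 to 0.23 for Cald1 in Prm2-/- against Prm2+/+. Of the alternative values of single members, 341 counted as unchanged, 11 turned their sign, 4 moved and 1 newly passed the threshold in Prm2+/- against Prm2+/+. Unchanged meant the same sign and the same side of the threshold. In Prm2-/- against Prm2+/+ it meant the same sign and a shift smaller than the SE of the main fit. The 4 that moved, all of Des in that comparison, kept their sign with a larger shift. Among them, 1, without replicate 1 of Prm2+/+, is the value described above that also passed the threshold. Where the library left out was not part of the comparison, the LFC stayed the same by construction, and such values are among the 341.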
